A study of Mus musculus with 18 samples.

Results

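The 7 genes followed here encode the MHC class II pathway of the mouse: the class II chains H2-Aa, H2-Ab1 and H2-Eb1, the invariant chain Cd74, the peptide editor chains H2-DMa and H2-DMb1, and the transcriptional coactivator Ciita. They were chosen by name, with earlier results of these data known, from the 46603 genes quantified in each of 18 cultures. All 7 were found in every table. RNA was sequenced from 10 pretransplant organoid cultures and 8 tumoroid cultures of mouse lung. All cells came from mice in which 1 Col1a1 locus carries a lox-stop-lox cassette, a CAG promoter and human EGFR with the T790M and L858R mutations (EGFR TL). Sorted cells received Ad-GFP, the control virus that leaves the stop cassette in place, or Ad-Cre, which removes it, and were grown in Matrigel with neonatal lung mesenchymal support cells, so every culture can also hold RNA of those cells.

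The organoids were 4 tracheal cultures (club cells sorted as NGFR negative and basal cells sorted as NGFR positive, with Ad-GFP and with Ad-Cre each), 2 AT2 cultures (Sca1-negative distal cells with Ad-GFP and with Ad-Cre), and 4 cultures of Sca1-positive bronchioalveolar stem cells (BASCs). The BASC cultures were mixed (Ad-GFP and Ad-Cre), alveolar (Ad-Cre) or bronchiolar (Ad-Cre) by their shape under the microscope. The tumoroids all carried Ad-Cre and were grown from lung tumors, 7 from orthotopic transplants into nude (Foxn1 nu/nu) mice, which lack most T cells, and 1 from an autochthonous tumor. By their labels the transplants began as AT2 cells (3), mixed BASCs (3) or bronchiolar BASCs (1). For the 3 tumoroids of AT2 origin the label also names an NGFR-negative sort, and their origin decided their place here. Each culture gave 1 library, so cultures of different populations and viruses stand in for replicates among the organoids. The Ad-GFP and Ad-Cre cultures of a population were aliquots of 1 sort, and the BASC subcultures were picked from BASC organoids during passage. Some tumoroid labels share a number, and whether those tumoroids are independent is not stated. The p values therefore describe the spread between these cultures, part of which may be technical.

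MHC class II molecules present peptides from endocytosed proteins to CD4+ T cells. The invariant chain CD74 occupies the groove while the molecule travels to endosomes, cathepsins cut CD74 away, and the DM dimer then exchanges the remaining fragment for peptide. CIITA switches on the whole set by binding to the factors that sit on the X and Y boxes of their promoters, and outside the immune system AT2 cells of the alveoli are known for constitutive class II expression.

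The promoters of H2-Aa and H2-Eb1 are shown because the genes of these chains moved together in the cultures and both hold letters like those of the X and Y boxes. The 150 bases before each RefSeq transcription start (build GRCm38.p6) are printed 5' to 3' on the strand of the gene, chr17:34287824-34287973 on the minus strand for H2-Aa and chr17:34305717-34305866 on the plus strand for H2-Eb1. Capitals mark an X-like stretch and the Y motif that follows it.
H2-Aa: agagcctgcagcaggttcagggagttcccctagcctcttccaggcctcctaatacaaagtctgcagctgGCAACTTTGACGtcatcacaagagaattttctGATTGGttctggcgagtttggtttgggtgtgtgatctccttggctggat
H2-Eb1: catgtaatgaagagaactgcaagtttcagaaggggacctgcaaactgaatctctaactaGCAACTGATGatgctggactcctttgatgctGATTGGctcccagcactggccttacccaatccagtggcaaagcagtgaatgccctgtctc
The X-like stretch was searched as GNAAC followed after at most 3 bases by TGANG, and the Y motif as GATTGG, 5 to 40 bases further on the same strand. Both strands were read over the 300 bases around each start (250 before, 50 after). These letters were chosen with the promoters above in view. In H2-Aa the X-like stretch lay at bases 81 to 70 before the start and the Y motif at 49 to 44, and in H2-Eb1 at 91 to 82 and 60 to 55. H2-DMb1 held the pair as well, with GTAACTGATG at 94 to 85 and the Y motif at 62 to 57. Of the 32851 RefSeq promoters of mouse, 4.24% held the X-like stretch, 16.1% the Y motif and 0.0761% the pair, which is 25 promoters. Neither of the 2 promoters listed for H2-DMa held the pair, and of 4 class II genes outside the set followed here H2-Ob and H2-Eb2 held it and H2-Oa and H2-DMb2 did not. H2-Ab1, Cd74 and Ciita were not matched in the promoter table.

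The levels of the 7 genes fell into a graded order of cultures. Tracheal organoids were lowest, bronchiolar and mixed BASC organoids lay between, and alveolar organoids stood with most tumoroids at the top. TPM, a gene's share of the transcripts of a library, is scaled for gene length and is the unit of every level given below. The 7 genes together summed to 31.4 to 70.34 TPM in the 4 tracheal cultures, 211.5 and 560.3 TPM in the mixed BASC cultures, 708.8 TPM in the bronchiolar BASC culture and 1990.3 to 2048.8 TPM in the 3 alveolar cultures. The 6 tumoroids of AT2 and mixed BASC origin spanned 252.9 to 3054.1 TPM, the bronchiolar BASC tumoroid reached 740.9 TPM and the autochthonous tumoroid 2963.1 TPM. The ranges of the tumoroids and the alveolar organoids overlapped, whereas no tracheal culture reached any other culture. The mixed BASC cultures lay between the tracheal and the alveolar cultures for 6 of the 7 genes, all but H2-DMb1, which in mixed BASC Ad-GFP (8.32 TPM) was within the tracheal range. In RNA from a whole culture, fewer cells that express a gene and less of its RNA in each cell cannot be told apart.

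**Figure D1:**
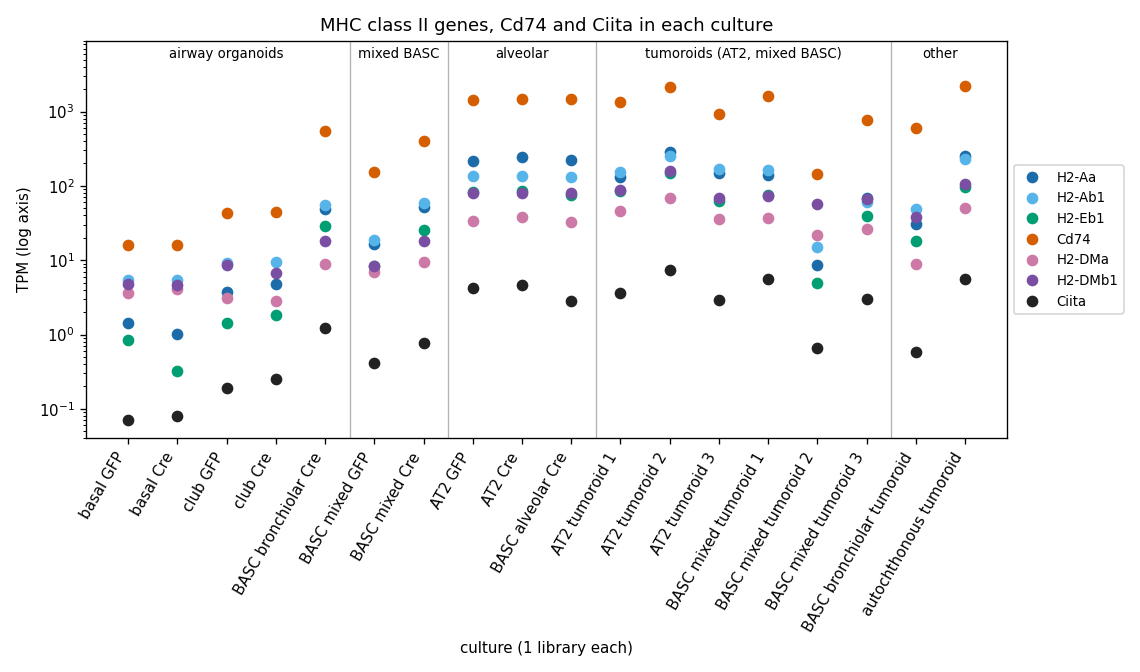
TPM on a log axis of the 7 genes (colours) in each of the 18 cultures, 1 library each, with grey lines between the sets of cultures. The 3 alveolar organoids lie above all 5 airway organoids for every gene, the bronchiolar BASC organoid lies above the 4 tracheal ones, and the tumoroids spread widely, with mixed BASC tumoroid 2 lowest of the 6 in the largest tumoroid set.

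The question of where in the lung epithelium the pathway is expressed was addressed by comparing 3 alveolar organoid cultures (AT2 Ad-GFP, AT2 Ad-Cre, alveolar BASC Ad-Cre) with 5 airway cultures (4 tracheal, 1 bronchiolar BASC), all sequenced on the same platform. All 7 genes were higher in the alveolar cultures at an adjusted p below 0.05 (edgeR quasi-likelihood test, Benjamini-Hochberg adjustment over 18362 genes), and for none of them did the groups overlap. The share of all genes without overlap was not counted, so the lack of overlap cannot be read as particular to these genes. In this comparison 27.9% of all genes tested were called higher, 30.5% lower and 58.4% in either direction (5125 and 5600 genes, or 4079 and 6741 with limma on TPM), so the count of 7 has to be read against a background in which a call was common. The median log2 fold change was 3.54 over the 7 genes and -0.06 over all genes. Pairs of aliquots of 1 sort entered this comparison as separate cultures without a block. The alveolar and bronchiolar BASC subcultures stood on opposite sides of it. Its p values therefore rest on fewer independent sorts than libraries.

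The class II chains form the peptide-binding dimers. H2-Aa (ENSMUSG00000036594, chr17:34282744-34287823), the alpha chain of I-A, stood at 212.9, 241.4 and 224 TPM in AT2 Ad-GFP, AT2 Ad-Cre and alveolar BASC cultures. The 4 tracheal cultures had 3.75 and 4.72 TPM (club Ad-GFP and Ad-Cre) and 1.43 and 1.03 TPM (basal Ad-GFP and Ad-Cre), and the bronchiolar BASC culture had 49.53 TPM. The alveolar level was 20.8-fold the airway level (log2 fold change 4.38, SE 1.18, adjusted p = 0.0124), with the bronchiolar BASC culture far above the other airway cultures and still below every alveolar one.

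H2-Ab1 (ENSMUSG00000073421, chr17:34257689-34269419), the beta chain of I-A, had 134.3, 136.1 and 130.3 TPM in the alveolar cultures. It had 9.11, 9.39, 5.41 and 5.45 TPM in the tracheal cultures in the same order and 56.13 TPM in the bronchiolar BASC culture. The difference was 3.12 on the log2 scale (SE 0.77, adjusted p = 0.00821). H2-Eb1 (ENSMUSG00000060586, chr17:34305867-34316674), the beta chain of I-E, was the lowest of the chains, with 83.22, 84.07 and 74.68 TPM in the alveolar cultures. Its tracheal levels were 1.43, 1.82, 0.85 and 0.32 TPM, and the bronchiolar BASC culture had 28.91 TPM. Its difference of 3.75 on the log2 scale (SE 1.24, adjusted p = 0.0294) passed the test with the largest error of the 7 genes. The gene for the alpha chain of I-E, listed as the pseudogene H2-Ea-ps, was at 0 in all organoids but AT2 Ad-GFP, which had 0.04 TPM.

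Cd74 (ENSMUSG00000024610, chr18:60803848-60812652) was the most abundant of the 7 genes in every culture. The invariant chain it encodes is also the surface receptor of the cytokine MIF. The alveolar cultures had 1441, 1464.8 and 1484.1 TPM, a mean of 1463 ± 21.6 (SD, n = 3). The tracheal cultures had 43.02 and 44.54 TPM (club) and 16.16 and 15.8 TPM (basal), and the bronchiolar BASC culture had 545.8 TPM, 12.3 times the highest tracheal value. Across the groups Cd74 was 12.5-fold higher in the alveolar cultures (log2 fold change 3.64, SE 1.17, adjusted p = 0.026).

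The DM chains load peptide and do not themselves present it, and their fitted differences had the smallest SE of the 7 genes. H2-DMa (ENSMUSG00000037649, chr17:34119541-34139101) had 34.1, 37.63 and 32.25 TPM in the alveolar cultures. The tracheal cultures had 3.06, 2.79, 3.65 and 4.13 TPM, with the bronchiolar BASC culture at 8.97 TPM (log2 fold change 2.89, SE 0.28, adjusted p = 8.61e-05). H2-DMb1 (ENSMUSG00000079547, chr17:34153072-34160230) had 80.58, 80.07 and 79.58 TPM in the alveolar cultures, and 8.59, 6.83, 4.75 and 4.59 TPM in the tracheal ones. It had 18.3 TPM in the bronchiolar BASC culture (log2 fold change 3.37, SE 0.43, adjusted p = 0.000324). The beta chain has a near-identical neighbour, H2-DMb2, and 19.5% of the stretches of 60 bases in H2-DMb1 transcripts also occur in H2-DMb2. The estimated split of reads between the paralogs is therefore uncertain, although H2-DMb2 took only 0.383 to 7.56% of their summed TPM in the 18 cultures.

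Ciita (ENSMUSG00000022504, chr16:10480059-10528418), the coactivator, was the least abundant member. It had 4.26, 4.62 and 2.79 TPM in the alveolar cultures, 0.19, 0.25, 0.07 and 0.08 TPM in the tracheal cultures and 1.24 TPM in the bronchiolar BASC culture. Expected counts behind the tracheal values were only 11 to 27. The alveolar cultures were 11.6-fold higher (log2 fold change 3.54, SE 0.85, adjusted p = 0.00736), a difference of the same order as those of its target genes.

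Without the bronchiolar BASC culture all 7 genes remained above the threshold and the differences grew, to 6.62 on the log2 scale for H2-Aa, 6.44 for H2-Eb1, 5.79 for Cd74, 4.93 for Ciita, 4.36 for H2-Ab1, 3.90 for H2-DMb1 and 3.20 for H2-DMa. For Cd74 and H2-Eb1 the call was lost in 5 and 6 of the 8 fits that each left out 1 culture, those without any alveolar culture or either club culture and, for H2-Eb1, without basal Ad-GFP, with adjusted p of at most 0.0561 and 0.0616 (edgeR). DESeq2 gave an adjusted p for H2-DMa and H2-DMb1 only and called both higher. It gave none for the other 5.

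**Figure D2:**
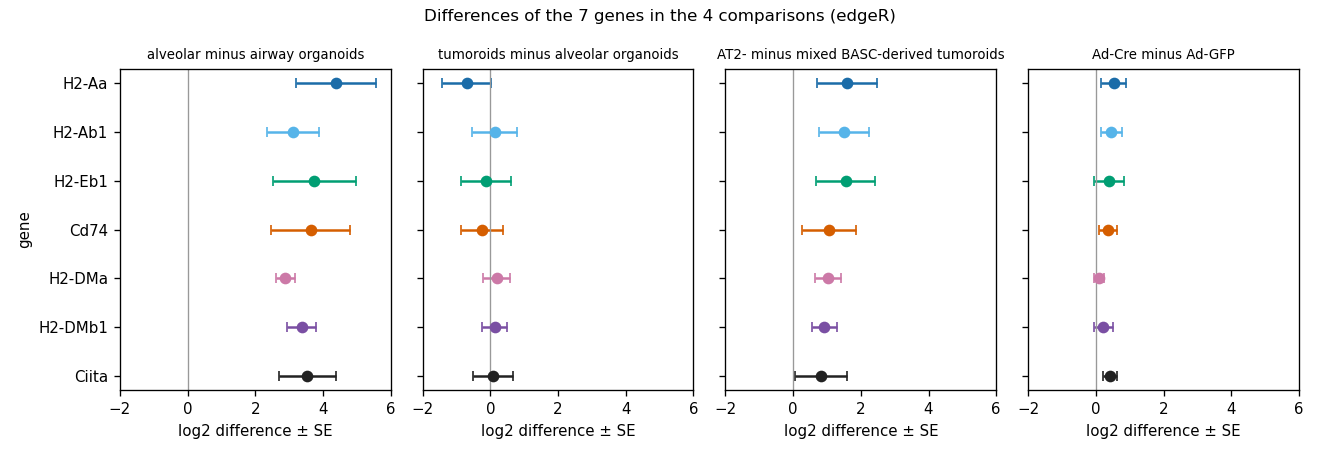
Log2 differences with their SE (horizontal bars) of the 7 genes in the 4 comparisons, from edgeR. The differences between alveolar and airway organoids range from 2.89 to 4.38, while those of the other comparisons lie from -0.70 to 1.59 and none of them passed the test.

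The other genes of the pathway did not follow as a set. Of 5 further class II genes, 3 were tested. H2-DMb2 was higher in alveolar cultures by 2.51 on the log2 scale (adjusted p = 0.00348), H2-Ob, the beta chain of the DM inhibitor DO, was lower by 3.37 (log2 fold change -3.37, adjusted p = 0.0339), and H2-Oa did not pass the test. H2-Ob nevertheless stayed at 1.2 TPM or below in the organoids used here. Of 8 genes for the X- and Y-box factors and relatives, 1 was higher (Nfyc, 0.40 on the log2 scale) and 4 were lower (Rfx5, Nfya, Nfyb and Rfx1), against a list median of -0.26. Rfx5, a subunit of the X-box complex, had 15.3 to 18.28 TPM in the alveolar and 22.19 to 32.2 TPM in the airway cultures (log2 fold change -0.55, SE 0.09, adjusted p = 0.00100).

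The RNA of genes for interferon gamma signalling, which induces Ciita in many cell types, also moved in both directions. Of 9 such genes, 1 was higher (Jak2, 0.82 on the log2 scale) and 4 were lower (Ifngr1, Ifngr2, Irf1 and Irf2), with a list median of -0.38. The activity of the pathway was not measured, and its part in the difference was not tested. Ifngr1, the ligand-binding receptor chain, fell by 1.33 on the log2 scale (adjusted p = 0.000655), from 146.1 to 272.6 TPM in the airway cultures to 61.59 to 64.03 TPM in the alveolar ones.

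Genes of endosomal processing moved in both directions. Of 11, 7 were higher and 2 lower in alveolar cultures, with a median of 0.48. Ctsh, a cathepsin also known for its part in surfactant protein maturation, had 2259.2 to 2727.2 TPM in the alveolar cultures and 307.7 to 627.3 TPM in the airway ones (log2 fold change 2.88, SE 0.24, adjusted p = 4.28e-05). Ifi30, a lysosomal thiol reductase, was higher by 0.96 (adjusted p = 0.000188). Ctss, the cathepsin that cuts the invariant chain in professional antigen-presenting cells, was at 2.92 TPM or below in every organoid and was lower in the alveolar cultures (log2 fold change -2.57, adjusted p = 0.0252).

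Of the 7 genes listed as costimulatory, which include the inhibitory ligands Cd274 and Pdcd1lg2, 5 were tested. Of these, 3 were lower (Cd80, Cd40 and Icosl) and 1 was higher (Cd83, 1.99 on the log2 scale), with a list median of -2.06. Over all genes tested 30.5% were called lower and 27.9% higher. Cd40 was at 1.76 TPM or below in every organoid. Cd80, a ligand of CD28, had 3.27 to 4.68 TPM in the alveolar cultures and 21.17 to 89.85 TPM in the airway cultures (log2 fold change -3.93, SE 0.50, adjusted p = 0.000307). Of the 4 genes tested among the ligands and coreceptors of CD74, Mif and its homologue Ddt were higher, Mif by 0.78 on the log2 scale, and Cxcr4 was lower (log2 fold change -3.85).

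Cells of the lung and trachea were stained for CD45 before sorting, and Ptprc, the gene for CD45, served as the check for leukocyte RNA. Ptprc had 0.42, 0.29 and 0.23 TPM in the alveolar cultures (85, 72 and 29 expected counts) and 0 to 0.03 TPM in the airway cultures (at most 3 counts). It was called higher in the alveolar cultures (edgeR, adjusted p = 0.000165), in the same direction as the 7 genes and at a far lower level, and no fold is given because at most 3 counts stand behind each airway value. Of 20 leukocyte markers 11 were tested, of which 6 were higher and 2 lower, and their summed level was 232.2 to 274.5 TPM in the alveolar and 111.1 to 142.6 TPM in the airway cultures. Most of the alveolar sum was Lcp1 (182.6 to 223.8 TPM), which encodes the actin bundler L-plastin. The dendritic cell marker Cd209a had 1 count in mixed BASC Ad-Cre and none in the other cultures, and the B cell marker Ms4a1 was at 0.05 TPM or below, while the B cell receptor gene Cd79b had 19.69 to 20.14 TPM in the alveolar and 1.1 to 1.71 TPM in the airway cultures. Adgre1 had 40, 26 and 1 expected counts in the alveolar cultures and 0 in the airway ones. Cd53 had 1.14 to 2.33 TPM in the alveolar and 0.57 to 0.89 TPM in the airway cultures. Cd68 went the other way, with 22.4 to 22.86 TPM in the alveolar, 81.33 to 102.4 TPM in the tracheal and 30.28 TPM in the bronchiolar BASC cultures. It made up most of the tracheal sum. The part of leukocyte RNA in the difference between alveolar and airway cultures was not tested.

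The bronchiolar BASC organoid had 0.01 TPM of Ptprc (2 counts), within the tracheal range, beside 545.8 TPM of Cd74 and 56.13 TPM of H2-Ab1. The bronchiolar BASC tumoroid had no Ptprc count beside 597.4 TPM of Cd74 and 48.11 TPM of H2-Ab1. Other leukocyte markers were present in these cultures, with 74.44 TPM of Lcp1 in the organoid (29.45 to 39.97 TPM in the tracheal cultures) and 3.14 TPM of Csf1r in the tumoroid, the highest of the 18 cultures. A count of 0 allows a level of up to 3 counts in that library and covers counting error only. AT2 tumoroid 2, with the highest summed level of the 7 genes (3054.1 TPM), had 0.09 TPM of Ptprc. Mixed BASC tumoroid 1 had the most Ptprc (0.91 TPM) and a summed level of 2123.8 TPM, above every alveolar organoid.

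**Figure D3:**
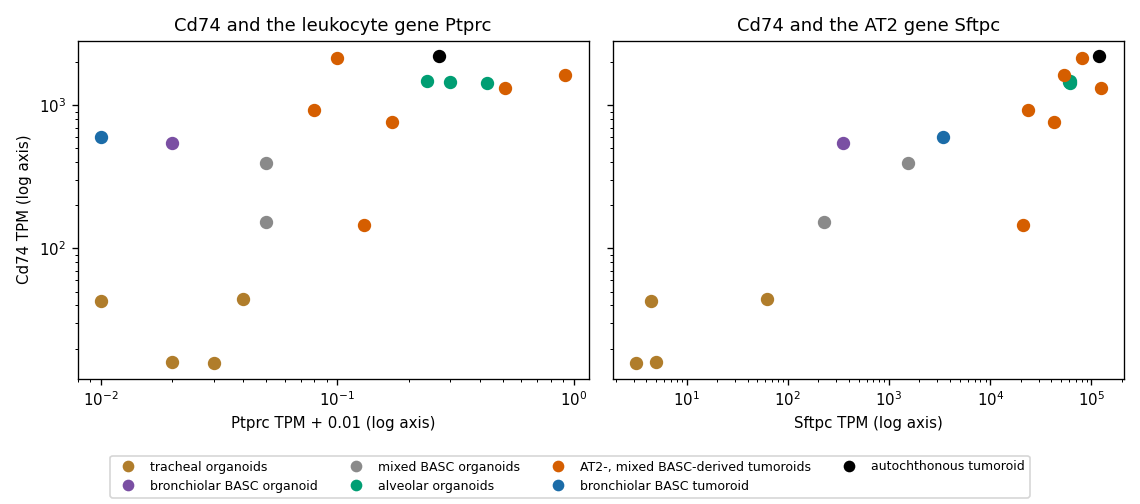
Cd74 TPM against Ptprc TPM + 0.01 (left) and Sftpc TPM (right) in the 18 cultures, all axes logarithmic, colours for the sets of cultures. The bronchiolar BASC organoid and tumoroid have 545.8 and 597.4 TPM of Cd74 at 0.01 and 0 TPM of Ptprc, and mixed BASC tumoroid 2 has 145.4 TPM of Cd74 beside 21223 TPM of Sftpc.

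Other marker lists also moved with the 7 genes. Of 9 AT2 markers 8 were higher in the alveolar cultures, with a summed level of 78752 to 85914 TPM against 783.9 to 4020.3 TPM in the airway cultures, and of 9 airway markers 8 were lower. Of 7 fibroblast markers 6 were higher (summed 1428.6 to 3131.1 TPM against 520.4 to 1173.2 TPM), and all 4 general epithelial markers were lower. The summed endothelial markers were at 0.61 TPM or below in all organoids. The part of these differences in the result was not tested.

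The genes whose pattern over the 18 cultures was most like the mean of the class II genes and Cd74 were Mat1a, Veph1, Lamp3, Sftpa1 and Cldn18, with Pearson correlations of log2 CPM (depth-scaled counts) of 0.965, 0.962, 0.959, 0.956 and 0.955 among 10406 candidates. Lamp3 and Sftpa1 are AT2 markers. Ciita, which was not part of that mean, had a correlation of 0.983 with it, Sftpc 0.948, Ptprc 0.703, Irf1 -0.57 and Rfx5 -0.72. These are descriptions over 18 libraries in which cultures of the same population, stage and platform are not independent points. Over the 8 tumoroids alone the correlation with Ciita was 0.943, with Sftpc 0.729 and with Ptprc 0.438. Among themselves the 7 genes had pairwise correlations from 0.895 (H2-Aa with H2-DMa) to 0.994 (H2-Aa with H2-Eb1).

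Class II levels after transplantation were compared between 6 tumoroids of AT2 and mixed BASC origin and the 3 alveolar organoids. The mixed BASC organoids, which share the labelled origin of 3 of these tumoroids, were not in this comparison. In them the 7 genes summed to 211.5 and 560.3 TPM, against 252.9 to 2123.8 TPM in the mixed BASC-derived tumoroids. Whether levels were kept from those starting cultures was not tested. None of the 7 genes passed the test (edgeR, adjusted p from 0.538 to 0.943, none at an unadjusted p below 0.05, and none by DESeq2), while 12.7% of 16260 genes were called higher, 9.07% lower and 21.7% in either direction. The organoids and the tumoroids were sequenced on different platforms, so platform, transplantation and tumor growth cannot be told apart. The SE was 0.37 to 0.73 on the log2 scale, and changes larger than the SE in either direction remain possible. A missed threshold does not show equal levels.

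The spread among tumoroids far exceeded that among the alveolar organoids. Cd74 ranged from 145.4 TPM (lowest) over a median of 1128 TPM to 2137.4 TPM (highest) in the 6 tumoroids, 14.7-fold from end to end, against 1.03-fold in the alveolar organoids (log2 fold change of tumoroids over organoids -0.25, SE 0.63, adjusted p = 0.808). H2-Aa ran from 8.5 over 136.4 to 281.6 TPM, a 33.1-fold range (log2 fold change -0.70, SE 0.73, adjusted p = 0.538). H2-Ab1 ran from 15.19 over 160.1 to 252.7 TPM (log2 fold change 0.13, SE 0.67, adjusted p = 0.911). For each of these genes the lowest tumoroid lay below and the highest above all alveolar organoids.

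H2-Eb1 spanned 4.98, 69.14 and 147.5 TPM (lowest, median, highest; log2 fold change -0.12, SE 0.73, adjusted p = 0.922), and Ciita 0.66, 3.33 and 7.46 TPM (0.07, SE 0.59, adjusted p = 0.943). The DM chains varied least, H2-DMa from 21.58 over 36.3 to 68.39 TPM, a 3.17-fold range, and H2-DMb1 from 56.5 over 70.57 to 159.1 TPM, a 2.82-fold range. Their differences from the alveolar organoids were 0.19 (SE 0.39, adjusted p = 0.77) and 0.13 (SE 0.37, adjusted p = 0.827) on the log2 scale. Mixed BASC tumoroid 2 was the lowest of the 6 and AT2 tumoroid 2 the highest for all 7 genes.

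Beside these genes, Ifngr1 was lower in the tumoroids (log2 fold change -1.22, adjusted p = 0.00102), as were Ifngr2, Jak2 and Sppl2a, a protease that clears the last CD74 fragment (-0.84, adjusted p = 0.00113). Over the lists, 1 of 9 interferon gamma genes was higher (Irf8) and 3 were lower, none of 9 tested processing genes was higher and 1 was lower, 1 of 8 X- and Y-box genes was higher (Rfx1) and 1 lower (Creb1), and of 4 tested costimulatory genes Cd80 was lower (-2.52, adjusted p = 0.0463). Of the 4 tested CD74 partners Mif was higher, by 1.06 (adjusted p = 0.0111). Ptprc ranged from 0.07 to 0.91 TPM in the tumoroids and did not pass (log2 fold change 0.01, SE 0.78, adjusted p = 0.992). Of 9 leukocyte markers tested, 2 were higher in the tumoroids (Itgax and Cd79a) and none was lower, and of 9 AT2 markers 2 were lower (Lamp3 and Napsa) and none was higher. The summed leukocyte markers were 64.91 to 235.2 TPM, and the summed AT2 markers 32072 to 146839 TPM. Fibroblast markers summed to 116.6 TPM (AT2 tumoroid 2) to 3124 TPM (AT2 tumoroid 3). General epithelial markers summed to 740.9 TPM (AT2 tumoroid 3) to 3335 TPM (mixed BASC tumoroid 3). Of 7 fibroblast markers 1 was lower in the tumoroids, and of 4 epithelial markers 1 was higher. The part of all these markers in the comparison and in the spread among tumoroids was not tested.

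The composition of the set differed between cultures. Cd74 made up 71.5 to 73.2% of the summed TPM of the 7 genes in the alveolar organoids, 50 to 63.3% in the tracheal organoids and 57.5 to 80.6% in the tumoroids. H2-DMb1 was 0.332 to 0.379 times the level of H2-Aa in the alveolar organoids and 0.369 times in the bronchiolar BASC organoid. In the tracheal organoids it exceeded H2-Aa by 1.45 to 4.46 times. Mixed BASC tumoroid 2 stood apart, with a ratio of 6.65 (56.5 TPM of H2-DMb1 over 8.5 TPM of H2-Aa), against 0.42 to 1.24 in the other 7 tumoroids. In that culture H2-DMa and H2-DMb1 (21.58 and 56.5 TPM) were close to the next lowest of the 6 tumoroids (26.02 and 66.71 TPM), while H2-Aa, H2-Eb1 and H2-Ab1 (8.5, 4.98 and 15.19 TPM) were far below theirs (68.5, 38.95 and 61.27 TPM). Its AT2 markers summed to 34752 TPM, against 32072 TPM in AT2 tumoroid 3 and 59255 to 146839 TPM in the others. Among them Sftpc, Sftpa1 and Lamp3 were the lowest of the 6 tumoroids, and Napsa was the highest. Its airway markers summed to 3389.8 TPM, the highest of the 6 (62.61 to 621.1 TPM in the others). Of that sum Scgb1a1, a club cell gene, had 2910.3 TPM. The part of these markers in the ratio was not tested. It is 1 library and its ratio has no replicate.

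**Figure D4:**
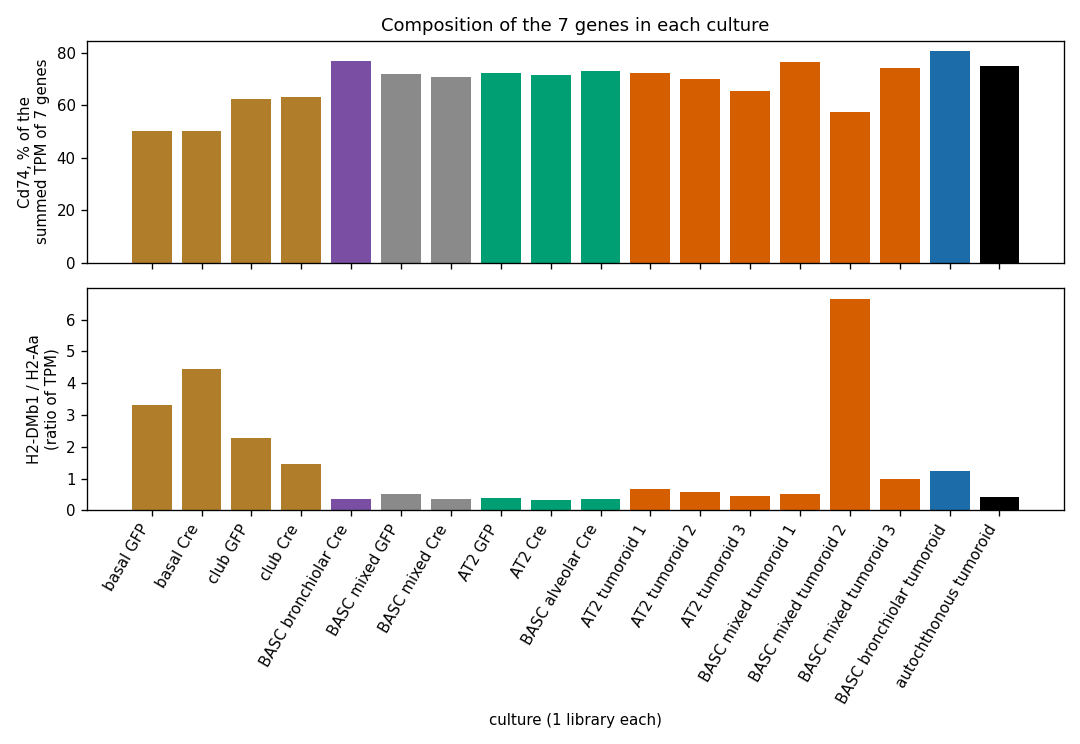
Upper bars, Cd74 as a percentage of the summed TPM of the 7 genes in each culture, and lower bars, the ratio of H2-DMb1 to H2-Aa TPM, both from 0, coloured by set of cultures as in the plot of Cd74 against Ptprc. The ratio is at most 0.505 in the 6 distal organoids, 1.45 to 4.46 in the 4 tracheal organoids and 6.65 in mixed BASC tumoroid 2.

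Whether the cell of origin mattered among tumoroids was addressed by comparing AT2-derived (n = 3) with mixed BASC-derived (n = 3) tumoroids. None of the 7 genes and 0% of 15470 genes were called higher, lower or in either direction (edgeR). At an unadjusted p below 0.05 there were 144 genes, H2-DMa and H2-DMb1 among them, and DESeq2 called 7 genes, none of them a member. The AT2-derived tumoroids had 1333.9, 2137.4 and 922.2 TPM of Cd74 and the mixed BASC-derived ones 1626.3, 145.4 and 766.6 TPM. The groups overlapped for every member. All 7 log2 fold changes were above 0, from 0.83 (Ciita, SE 0.76) to 1.59 (H2-Aa, SE 0.87), and each had an adjusted p of 1.00. Without 1 tumoroid each they ran from 0.27 to 1.47 for Ciita (lowest without AT2 tumoroid 2, highest without mixed BASC tumoroid 1), 1.07 to 2.39 for H2-Aa and 1.02 to 2.46 for H2-Ab1 (both lowest without mixed BASC tumoroid 2 and highest without mixed BASC tumoroid 1). The ranges were 0.57 to 1.83 for Cd74 and 1.03 to 2.29 for H2-Eb1, set by the same tumoroids, and 0.71 to 1.29 for H2-DMa and 0.48 to 1.21 for H2-DMb1, lowest without AT2 tumoroid 2 and highest without AT2 tumoroid 3.

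The remaining tumoroids were single libraries, sequenced on another platform than the organoids, and were not tested. The bronchiolar BASC tumoroid lay below every alveolar organoid for all 7 genes, with 30.36 TPM of H2-Aa, 17.98 TPM of H2-Eb1, 8.76 TPM of H2-DMa, 37.69 TPM of H2-DMb1 and 0.59 TPM of Ciita, and its markers summed to 9075.2 TPM for AT2 and 14367 TPM for airway. The autochthonous tumoroid lay above every alveolar organoid for all 7 genes. It had 2216.5 TPM of Cd74, 253.9 TPM of H2-Aa, 233.2 TPM of H2-Ab1, 96.39 TPM of H2-Eb1, 50.87 TPM of H2-DMa, 106.5 TPM of H2-DMb1 and 5.64 TPM of Ciita, from 1.05 times (H2-Aa) to 1.71 times (H2-Ab1) the highest alveolar organoid. The share of all genes that lay above or below every alveolar organoid in these tumoroids was not counted, and the 7 genes moved together.

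The effect of activating EGFR TL was addressed in the 4 populations with an Ad-GFP and an Ad-Cre culture each, with population as a block. No member and 0% of 17749 genes were called higher, lower or in either direction (edgeR). There were 350 genes at an unadjusted p below 0.05, none of them a member, and DESeq2 called 5 genes, none of them a member. The blocked log2 differences of the 7 genes were 0.08 (H2-DMa, SE 0.14) to 0.52 (H2-Aa, SE 0.37), each with an adjusted p of 0.994.

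The pairs differed in what they showed. In AT2 cells the differences lay between -0.10 (H2-DMb1) and 0.15 (H2-Aa) log2 CPM, and Cd74 had 1441 TPM with Ad-GFP and 1464.8 TPM with Ad-Cre. In mixed BASC cultures all 7 genes had higher values with Ad-Cre, from 152.4 to 396.2 TPM for Cd74 (1.44 log2 CPM), 16.48 to 51.84 TPM for H2-Aa (1.70), 18.58 to 57.91 TPM for H2-Ab1 (1.69), 8.39 to 25.82 TPM for H2-Eb1 (1.66), 8.32 to 18.34 TPM for H2-DMb1 (1.36), 0.42 to 0.77 TPM for Ciita (0.90) and 6.92 to 9.5 TPM for H2-DMa (0.36). This is 1 pair of cultures, and the summed AT2 markers of the same cultures were 1677.4 and 4445.2 TPM and the summed fibroblast markers 532.6 and 1280.2 TPM, a difference whose part was not tested. In club and basal cells the signs were mixed, and in basal cells the low H2-Eb1 and H2-Aa were lower with Ad-Cre (-1.28 and -0.70 log2 CPM, at 0.32 to 1.43 TPM). A test of whether the Ad-Cre effect differed between distal and tracheal populations called no gene, with 852 at an unadjusted p below 0.05 and an adjusted p of 0.998 for each member (edgeR).

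**Figure D5:**
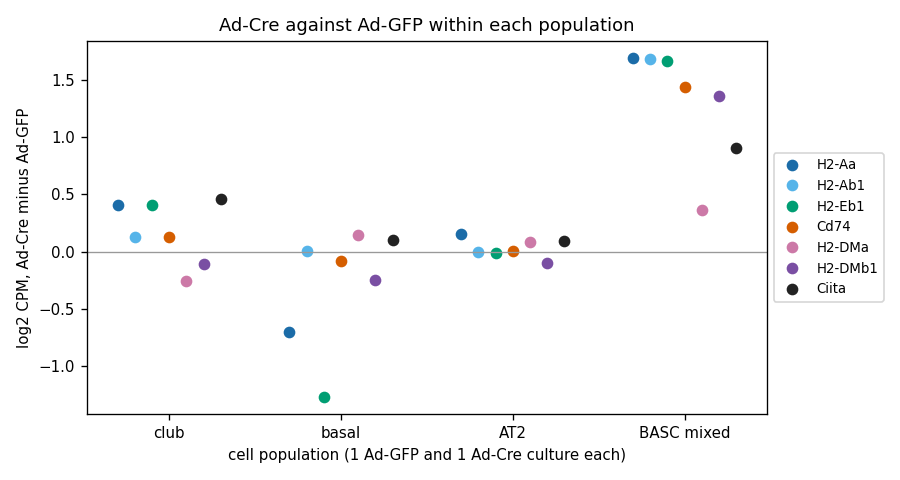
Difference in log2 CPM between the Ad-Cre and the Ad-GFP culture of each of 4 cell populations, for the 7 genes (colours), 1 culture of each kind. The AT2 pair lies within -0.10 to 0.15, and the mixed BASC pair lies between 0.36 and 1.70.

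Total expected counts per library were 27772660 to 97191624 in the organoids and 15327265 to 23355938 in the tumoroids, and no pair of libraries of 1 group agreed within sampling noise. The fewest expected counts behind a member's value were 11, for Ciita in basal Ad-GFP and for H2-Eb1 in basal Ad-Cre, while every value of a member in alveolar organoids and tumoroids rested on at least 45.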

How the data were processed

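RNA was sequenced from 18 cultures, the organoids with TruSeq libraries on a HiSeq and the tumoroids with BGI libraries on a DNBSEQ instrument. The submitters' processing notes name Trimmomatic 0.39, STAR 2.6.1d and RSEM 1.3.2 with GRCm38. The deposited tables hold RSEM's expected counts per gene, not scaled between samples, and the TPM that the authors derived with the same tool, scaled by gene length and library, which gave all levels here. Of 46603 genes, 46005 were matched to symbols of GENCODE vM21 and 598 were not. Expected counts were rounded and tested in R 4.3.3 with edgeR 4.0.16 (filterByExpr, TMM, quasi-likelihood test, Benjamini-Hochberg adjustment over all genes tested, called below 0.05), after a check on simulated data. Effective lengths imply a mean fragment of 63.42 bases or more in the organoids and at most 49.95 in the tumoroids. TPM and CPM are shares of a library, so a few very abundant genes such as Sftpc lower all others. Alternatives were DESeq2 1.42.0, its size factors in edgeR, no filter, limma 3.58.1 on log2(TPM + 1), 1 fit over all samples, other groupings and leaving out each culture.

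Members and gene lists were chosen with earlier results of these data known. Named genes were the 7 members, Ptprc, the genes of the class II, X- and Y-box factor, interferon gamma, processing and costimulation lists, and the 5 genes most like the class II mean among those with a mean CPM of at least 10. Markers and CD74 partners outside this rule (Lcp1, Cd209a, Ms4a1, Cd79a, Cd79b, Adgre1, Cd53, Cd68, Csf1r, Itgax, Napsa, Scgb1a1, Sftpc, Mif, Ddt and Cxcr4) were named after their values were seen. Promoter sequences are from RefSeq (GRCm38.p6). The tumoroid labels do not say which cultures share a host, and the EGFR transgene, being human, was not used here. A few of the listed genes are left out of the text.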

Additional observations from a re-analysis of the deposited data

Results flagged for a closer look

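Within the 5 airway organoids the bronchiolar BASC Ad-Cre culture stood far above the tracheal cultures, with a gap larger than Dixon's 95% critical value, for H2-Aa (49.53 TPM), H2-Ab1 (56.13 TPM), H2-Eb1 (28.91 TPM), H2-DMa (8.97 TPM), Cd74 (545.8 TPM) and Ciita (1.24 TPM). It is the only culture of distal cells among them. Among the 6 tumoroids of AT2 and mixed BASC origin, H2-DMb1 of AT2 tumoroid 2 (159.1 TPM) stood above the others by the same measure. Chance gives about 1 such value in 20 independent groups, and 21 groups were examined. These groups were not independent, because the genes moved together and were read in the same cultures. The number of flagged values therefore cannot be weighed against that rate. The airway set also joined the bronchiolar BASC culture to tracheal ones, so its distance from them was not tested against chance.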

How the results depend on the processing

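Between alveolar and airway organoids DESeq2 called 2 members, the only ones for which it gave an adjusted p, and the fits without 1 culture called 5 to 7, while every member with an adjusted p kept its direction in every alternative. Between tumoroids and alveolar organoids, where 3535 genes were called, 1 fit over all 18 samples called 5780, AT2-derived tumoroids only 1711, tumoroids that share a number summed 5330, and fits without 1 culture 1451 to 4484 (without AT2 Ad-Cre and without AT2 tumoroid 3), of which the 3 without an alveolar organoid called 1451 to 1723. No member was called in any of these, and small log2 differences changed sign: H2-Ab1 to -0.40 with limma on TPM and -0.10 in the fit over all samples, H2-Eb1 to 0.45 and Cd74 to 0.17 with AT2-derived tumoroids only, and Ciita to -0.0048 without a filter, -0.15 with limma, -0.034 in the fit over all samples and -0.0076 with all 8 tumoroids. Without 1 culture each the log2 differences ran from -0.20 to 0.37 for H2-Ab1, -0.55 to 0.13 for H2-Eb1, -0.086 to 0.33 for H2-DMa, -0.18 to 0.25 for H2-DMb1, and -0.28 to 0.30 for Ciita. Between AT2- and mixed BASC-derived tumoroids DESeq2 called 7 genes and the fit over all samples 2, against 0. For Ad-Cre against Ad-GFP DESeq2 called 5 genes against 0, and without 1 culture each the log2 differences ran from -0.14 to 0.70 for H2-Eb1 and -0.15 to 0.37 for H2-DMb1. The fit without the population block called 0 genes and 0 members, as with it. The cause of these changes was not tested, except that the fits without 1 culture hold fewer samples. The pairs are aliquots of 1 sorted population. Between the tumoroid groups no blocked fit was made. No paired analysis was possible because these groups share no label number, and the organoid pairs were already blocked by population. Low counts limit Ciita and H2-Eb1 in tracheal cultures.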
